A study of Homo sapiens with 6 samples.

Results

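Lone sites are USP39 crosslink sites that were the only site of their protein-coding gene. They were selected by the number of sites measured in each gene: the gene's span held exactly 1 site of the merged list, by the site's central base, and that site lay in no other gene of the RefSeq gene table. The rule gave 1098 lone sites in 1098 genes, which is 3.16% of the 34781 sites in the list. Because the measured sites chose the members, the number of sites per gene and the isolation of these sites are given as descriptions and support nothing.

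The sites came from individual-nucleotide resolution crosslinking and immunoprecipitation in its improved form (iCLIP2), which maps where a protein touches RNA. Wild-type HEK293T cells, a human embryonic kidney line, were irradiated with 254 nm ultraviolet light, and USP39 was pulled down with an antibody against it. RNA was recovered from a low and a high region of the membrane, each in 3 replicates, giving 6 libraries. The list analysed here is 1 merged set of sites, so it carries no value per library, no membrane-region contrast and no spread between replicates. Each site is 5 nt wide and carries a score of 0, so sites could not be ranked by strength and the reads behind a site are unknown. RNA levels were not measured, and a gene with 1 site can therefore not be told apart from a gene whose RNA was too scarce for a second one to be called. A library without ultraviolet light was not analysed here.

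USP39 carries a zinc finger and a ubiquitin-protease fold, but lacks the catalytic residues that would make it an active deubiquitinase. It works within the tri-snRNP, which brings the U4, U6 and U5 small nuclear RNAs to a pre-mRNA that U1 and U2 have already marked, before the spliceosome becomes active. Its yeast counterpart is Sad1. Crosslinking by short-wave ultraviolet light favours uridine, so site letters in such experiments carry this bias together with the protein's own contacts.

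Sequence was at hand for the lone sites that fell in a RefSeq promoter window, which runs from 250 bases before to 50 bases after a gene's start. Of the 1098 genes, 943 had such a window under their own symbol, and 26 lone sites had all 25 bases around them inside a window. As a set, the 10 below display both letter patterns seen at these sites, many T and many G. ERP44, SF3B5, COA3, DLGAP5 and SSNA1 came from the rule for named genes, and NAMPT, SMARCE1, H1-3, CEBPB and GRIPAP1 were picked after their letters were seen. NAMPT encodes an enzyme of NAD synthesis, CEBPB a transcription factor, SMARCE1 a subunit of a chromatin remodeller, H1-3 a linker histone, COA3 an assembly factor of cytochrome c oxidase and DLGAP5 a mitotic spindle protein. Each line runs 5′ to 3′ on the site's strand (RefSeq, GRCh38.p14, with T for the U of RNA), and the capitals mark the 5 nt of the site.
NAMPT (chr7:106284936-106284960, minus strand): gtgaagctcaTTTTTctccttcctc
CEBPB (chr20:50192236-50192260, plus strand): tatatctataTTTTTgtccaaacca
SMARCE1 (chr17:40647772-40647796, minus strand): tgcgggcgctTTTTCtgcccgcggg
H1-3 (chr6:26234940-26234964, minus strand): tacttattgtCTTTTctgggaagac
COA3 (chr17:42798636-42798660, minus strand): gaccctctggATTCTaagcgtggag
SF3B5 (chr6:144095531-144095555, minus strand): agagcggcgaGTTGTtacctgcgtc
DLGAP5 (chr14:55191473-55191497, minus strand): gtttggttgaGGTTTcacgctagaa
ERP44 (chr9:100098988-100099012, minus strand): aagttgtcccGGGTGttcgccgctg
SSNA1 (chr9:137188686-137188710, plus strand): ccgcggcggtTGGGGtggtggggcc
GRIPAP1 (chrX:49002227-49002251, minus strand): gcgggggggtGGGGGgaggaacatg

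Among the 26 sites, 19 had at least 3 T in their 5 letters and 6 had at least 3 G. T made up 60.8% of the site letters, G 23.8%, C 9.23% and A 6.15%. The 868 other sites with full sequence in such windows had 48.2% T, 18.6% G, 24.0% C and 9.17% A. The first bases of coding genes in general, read from position 26 to 50 after the start in 22198 windows, had 18.5% T. The lone sites were thus T-rich like other sites of the list, and more T-rich than the stretches around them, since T was 30.3% over the whole 25 bases in lone sites and 29.6% in the others. The run TTTT, searched on the site's strand only, was in 10 of the 26 windows (38.5%), in 254 of the 868 others (29.3%) and in 1058 of the 22198 gene starts (4.77%). The donor-like words GTAAG and GTGAG each occurred in 1 of the 26 windows, in 3 and 22 of the 868 others, and in 1.41% and 4.69% of the gene starts. Of the 26 sequences, 15 came from the window of the site's own gene and the others from that of another gene. Their positions are therefore unlike the fixed 26 to 50 of the gene starts set beside them. The 26 sites all lie near gene starts and say nothing of the letters at sites elsewhere in genes.

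Single sites were the most frequent case among genes that had any site. Of 20033 nuclear protein-coding genes, 4627 (23.1%) had a site, and 1363 of these (29.5%) had exactly 1. The 1098 genes with a lone site made up 23.7% of the site-bearing genes. In the remaining 265 single-site genes the site also lay inside another gene. There were 683 genes with 2 sites, 458 with 3, 324 with 4 and 271 with 5, and 397 genes had more than 20, up to 180.

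**Figure D1:**
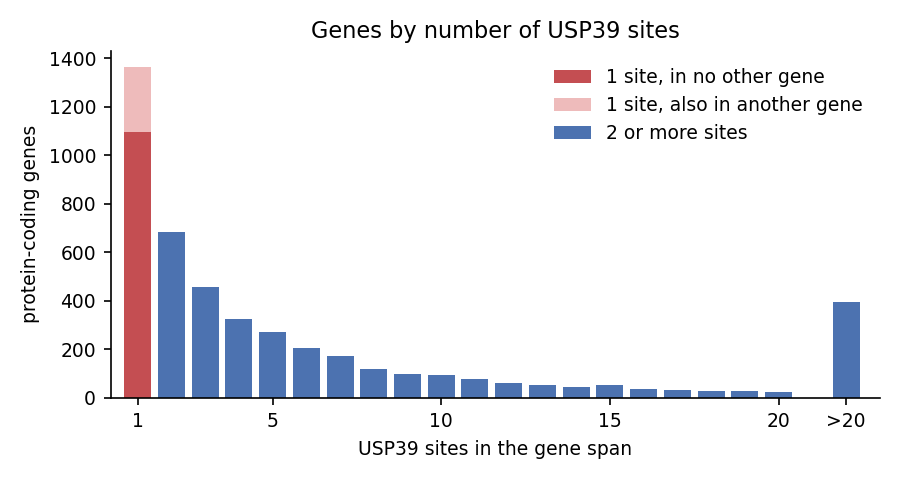
Bars give the number of protein-coding genes (y axis) by the number of USP39 sites in the gene span (x axis), with genes of more than 20 sites pooled on the right. The first bar holds the 1098 genes with a lone site and, in a paler shade, the 265 whose single site also lay in another gene.

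Genes with 2 sites show how close together separately listed sites can lie. Their 2 sites were at most 10 nt apart in 27 of the 683 genes, at most 50 nt apart in 54 (7.91%) and at most 1 kb apart in 254 (37.2%), and the median gap was 1.95 kb. The closest pairs lay 5 nt apart in PFDN6, a subunit of the prefoldin chaperone, 5 nt apart in SPDYE3, a member of a multi-copy family, and 6 nt apart in the homeobox gene HOXD9. At 5 nt the intervals abut, whereas most 2-site genes carried sites more than 1 kb apart.

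Lone-site genes had the longest median span among the classes by number of sites. Their median span was 35.5 kb (95% interval 32.7 to 38.7), with quartiles at 13.3 and 86.5 kb, and the span included introns. The medians were 28.3 kb for genes with 2 sites, 25.3 kb with 3 to 5, 25.7 kb with 6 or more and 23 kb for the 15406 genes with no site. The interval of the lone-site genes lay above those of all 4 other classes, of which the highest was 24.9 to 32.3 kb in 2-site genes. These intervals cover counting error only, as do all others here, and the difference was not tested, because gene length is linked to the rule: a longer gene has more room for sites and for other genes.

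**Figure D2:**
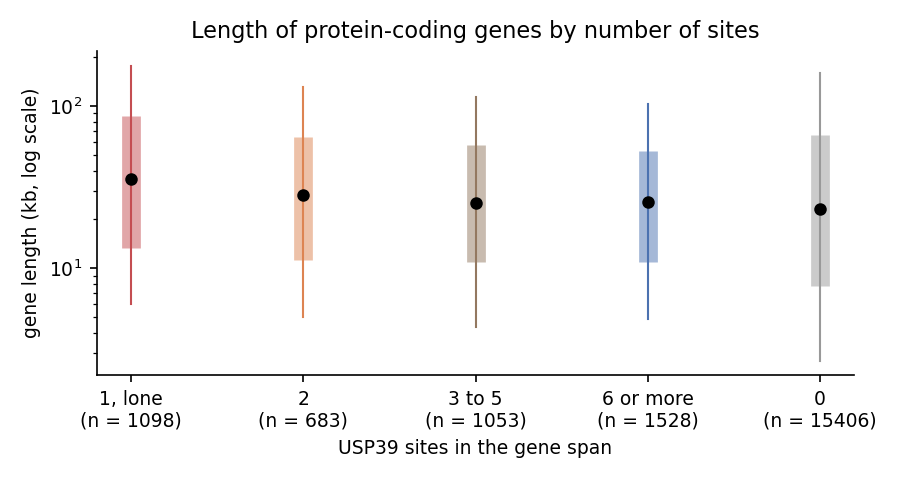
Gene span in kb on a log axis, by number of sites: the dot is the median, the box runs between the quartiles and the line between the 10th and 90th percentiles. The first column holds the 1098 lone-site genes, whose median of 35.5 kb is the highest of the 5, and the other columns hold all genes of their class.

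Single sites made up the largest share of site-bearing genes above 100 kb. Among site-bearing genes of 100 to 300 kb, 42.5% (248 of 584, Wilson interval 38.5 to 46.5) had exactly 1 site, and above 300 kb 46.2% did (49 of 106, 37.0 to 55.7). Genes of 10 to 30 kb had exactly 1 site in 24.7% of cases (337 of 1367), and genes under 5 kb in 25.6% (120 of 469). The median number of sites was 2 in both classes above 100 kb, against 4 in genes of 10 to 30 kb. Among site-bearing genes, the longest thus held the fewest sites by median.

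The 5 longest lone-site genes were CSMD1, which encodes a large complement-control-like membrane protein (2060 kb), the presynaptic adhesion gene NRXN3 (1698 kb), the acid-sensing ion channel gene ASIC2 (1144 kb), the cell adhesion gene SDK1 (968 kb) and the protocadherin gene PCDH9 (928 kb). The site lay 65.3% of the way along NRXN3 (chr14:79279761-79279765, plus strand) and 84.3% along ASIC2 (chr17:33192453-33192457, minus strand). In PCDH9 it lay 1972 nt from the 5′ end (chr13:67228362-67228366, minus strand). In all, 239 lone-site genes (21.8%) spanned 100 kb or more and 17 spanned 500 kb or more. Of the 4627 site-bearing genes, 584 spanned 100 to 300 kb and 106 spanned 300 kb or more. Of all 20033 nuclear protein-coding genes, 2583 and 773 did.

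At the other end, the 5 shortest were all histone genes, which have no introns in their replication-dependent form. They were H4C16 (412 nt), H3C13 (469 nt), H2AC16 (482 nt), H2AC15 (496 nt) and H2BC15 (542 nt). Their sites lay 224, 317, 208, 47 and 480 nt from the 3′ end in that order. Histone genes have near-identical copies, so reads could have been placed in the wrong copy, and their count of sites is uncertain. Of the 1098 genes, 86 (7.83%) spanned less than 5 kb, against 469 of the 4627 site-bearing genes and 3196 of all 20033 nuclear protein-coding genes.

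Lone sites lay more often near the gene ends than in its middle, and most often near the 3′ end. The last 10% of the gene held 327 of the 1098 (29.8%, 27.2 to 32.6) and the first 10% held 162 (14.8%, 12.8 to 17.0), while each of the 8 bins of 10% between them held 55 to 119. Over all 28174 sites that lay in a single protein-coding gene and no other, 24.6% were in the last 10% and 10.2% in the first 10%. Where a gene's strand was not listed, which was so for 155 lone-site genes, the site's own strand set which end was 5′.

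To set genes against genes, each gene was given the same weight whatever its number of sites. The share in the last 10% was then 29.8% for lone sites, 30.1% for 2-site genes, 28.3% for genes with 3 to 5 sites and 24.6% for genes with 6 or more. The share in the first 10% was 14.8% for lone sites, 12.8% for 2-site genes, 12.7% for 3 to 5 and 10.7% for 6 or more. The interval of the lone sites excluded the value of the genes with 6 or more sites at both ends and included that of 2-site genes at both. For genes with 3 to 5 sites, it included the value in the last 10% and narrowly excluded that in the first 10%. Away from the ends, in bins 3 to 8 of the 10, stood 39.3% of lone sites, 40.8% of the sites of 2-site genes, 41.1% for 3 to 5 and 46.6% for 6 or more. No test was made, since the classes differ in gene length.

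**Figure D3:**
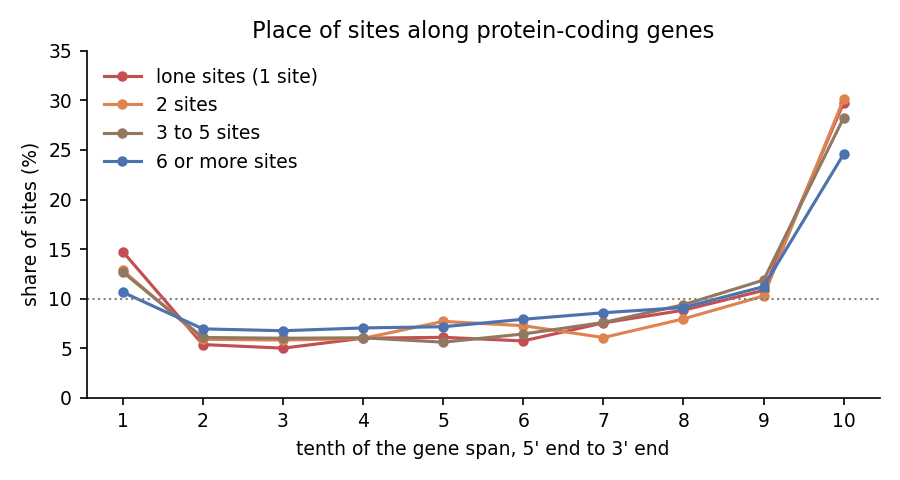
Share of sites (y axis, %) in each 10% of the gene length from the 5′ end to the 3′ end (x axis), for lone sites and for genes with more sites with each gene weighted equally; the dotted line marks 10%, the share of an even spread. Lone sites reach 29.8% in the last 10% and 14.8% in the first.

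Within length classes the pattern was not uniform. In genes of 10 to 30 kb, the last 10% held 33.3% of lone sites (93 of 279) and a gene-weighted 23% of the sites of genes with 6 or more. In genes of 30 to 100 kb it held 35.2% (129 of 366) and 30.4%, and in genes of 100 kb or more 30.5% (73 of 239) and 30.9%. Below 10 kb both stood at 15%. At the first 10%, lone sites were at 16.4%, 11.8%, 14.8% and 16.7% from the shortest to the longest of these 4 classes, and genes with 6 or more sites at 13.4%, 10.7%, 8.28% and 12.6%. Between lone sites and genes with 6 or more, the difference at the 3′ end was largest in genes of 10 to 30 kb. At the first 10%, the interval of the lone sites included the value of genes with 6 or more in 3 of the 4 classes, the exception being 30 to 100 kb (11.5 to 18.8). In the same 4 classes, 2-site genes had 16.4%, 27.2%, 37.9% and 38.1% in the last 10%, above the lone sites in all but genes of 10 to 30 kb, and 16.4%, 10.4%, 11.6% and 15.3% in the first.

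In distance, the median lone site lay 6.27 kb from the 3′ end and 16.2 kb from the 5′ end of its gene. The last 1 kb held 196 lone sites (17.9%), and the first 1 kb held 129 (11.7%). With each gene weighted equally, these shares were 18.2% and 11.1% in 2-site genes. They were 19.3% and 11.9% with 3 to 5 sites, and 15.1% and 10.6% with 6 or more. Closest in, the order turned round: 20 sites lay within 50 nt of the 5′ end and 4 within 50 nt of the 3′ end, and 42 against 16 within 100 nt. At 500 nt, 85 lay near the 5′ end and 104 near the 3′ end. The counts at 50, 100 and 500 nt are given for lone sites only, so they do not show a trait particular to them. For genes of unlisted strand, the end so counted rests on the strand of the site. Another 285 (26%) lay more than 10 kb from both ends, in genes with a median span of 102 kb. The gene-weighted share so placed was 22.4% in 2-site genes, 21.4% with 3 to 5 sites and 23.3% with 6 or more. This order did not hold within length classes. In genes of 30 to 100 kb the share was 33.9% for lone sites, and 36.4%, 38.4% and 42.6% for the other classes in that order. In genes of 100 kb or more it was 60.3% for lone sites, and 51.7%, 60.5% and 64.5%. In genes of 10 to 30 kb it was 6.09%, and 7.80%, 3.65% and 5.28%. Exons, introns and untranslated regions were not assigned, as only gene spans were used here.

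The sites nearest to a 3′ end were in ATP5ME, a small ATP synthase subunit (45 nt, chr4:672479-672483, minus strand), CCDC78 (45 nt, on the strand opposite to the gene), H2AC15 (47 nt), the muscle glycogen synthase gene GYS1 (49 nt, chr19:48968177-48968181, minus strand) and GTF2H4, which encodes a subunit of the transcription and repair factor TFIIH (53 nt, chr6:30914051-30914055, plus strand). At the 5′ end, the central base was the first base of the span in the endoplasmic reticulum chaperone gene ERP44 (chr9:100098998-100099002, minus strand). Read on the strand of the site, the same held for BCCIP (chr10:125823544-125823548, plus strand) and RAB26. MRPL15, a mitochondrial ribosomal protein gene, followed at 18 nt and SSNA1 at 22 nt. The strand of BCCIP, RAB26, MRPL15 and SSNA1 was not listed, so the end named for them rests on the strand of the site. For a gene on the opposite strand, the end so named would be its 3′ end. The RAB26 site also had another site 327 nt away on its strand, outside the gene, and SNHG19, a gene of that strand, lay 617 nt away.

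The strand of the site matched that of the gene nearly always, with a larger share of exceptions among lone sites. Of the 943 with a listed gene strand, 27 (2.86%, 1.98 to 4.13) were antisense. In 2-site genes it was 15 of 944 (1.59%, 0.965 to 2.61), an interval that overlaps that of the lone sites. In genes with 3 to 5 sites it was 31 of 2765 (1.12%), and with 6 or more 100 of 18902 (0.529%, 0.435 to 0.643). Over all 23554 sites so assigned it was 0.734%. The difference was not tested, because several sites of a gene are not independent. The share is also linked to the rule, which counts sites of either strand: a gene whose only site is antisense enters the lone class.

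**Figure D4:**
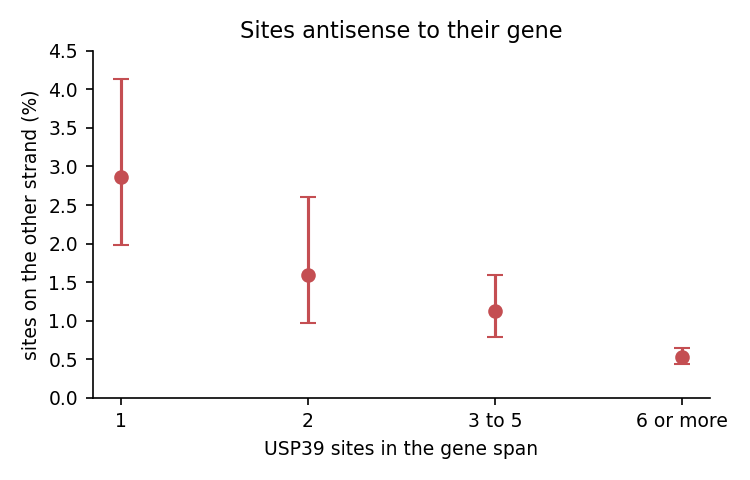
Share of sites on the strand opposite to their gene (y axis, %, with Wilson 95% intervals for counting error), by number of sites in the gene (x axis). The share is 2.86% for lone sites, 1.59% for 2-site genes, 1.12% for 3 to 5 and 0.529% for 6 or more.

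Several antisense lone sites had both a gene of their own strand and another site of that strand within 10 kb. The site in TRMT10B (chr9:37778510-37778514, minus strand), a tRNA methyltransferase gene, lay 1202 nt from EXOSC3, an RNA exosome gene on the minus strand, and 2154 nt from another site on that strand. The site in MAMDC4 (chr9:136860526-136860530, minus strand) lay 1591 nt from EDF1 and 1442 nt from another site. In KANSL1L (chr2:210023957-210023961, plus strand) the gene RPE lay 1699 nt away on the same strand and the next site 5553 nt away. The NFE2L3 site (chr7:26182644-26182648, minus strand) lay 7281 nt from HNRNPA2B1, which encodes an abundant hnRNP protein, and 5573 nt from the next site.

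Of the 27 antisense sites, 6 (22.2%) had another site on their strand within 10 kb, against 55 of the 916 sense sites (6.00%). The antisense sites lay in genes with a median span of 57.1 kb, and sense sites in genes of 35.4 kb. Others had no site nearby: the nearest lay 1175 kb from the SDK1 site and 603 kb from the COL11A1 site. SPDYE6 and SPDYE18, both antisense, belong to a family of near-identical copies, and their placement is uncertain.

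By the way they were chosen, lone sites stood far from others. The nearest site on the same strand lay a median of 185 kb away (quartiles 54.3 and 638 kb), and 717 sites (65.3%) had none within 100 kb. The farthest was in FAT1, an atypical cadherin gene, at 13262 kb, then PPAT, whose enzyme starts purine synthesis, at 11919 kb. A small number were not isolated on the genome: 69 (6.28%) had a site outside the gene within 10 kb, 7 within 1 kb and 1 at 44 nt. The nearest other gene lay a median of 7.22 kb from the site, and 136 sites (12.4%) had one within 1 kb.

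Both strands of the genome held about as many lone sites, 560 on the plus strand (51.0%) and 538 on the minus strand, and 49.7% of the whole list was on the plus strand. The share of site-bearing genes with a lone site was 23.7% over all. By chromosome it ranged from 11.1% on chromosome 21 (6 of 54, 5.19 to 22.2) to 37.5% on chromosome 18 (15 of 40, 24.2 to 53.0). These are the lowest and highest values among the chromosomes with a site-bearing gene. The share was 19.0% on chromosome 19 (63 of 331, 15.2 to 23.6) and 32.5% on chromosome 4 (39 of 120, 24.8 to 41.3). Differences between chromosomes were not tested.

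The kinds of gene differed widely in how often their site-bearing members had 1 site only. Genes were sorted into 53 kinds by the pattern of their symbols, which placed 318 of the 1098 lone-site genes (29.0%) in a kind and left 780 in none. The shares below are of site-bearing genes with exactly 1 site, to be read against 29.5% for all, and include single sites that also lay in another gene. They are descriptions, and RNA abundance differs between these kinds in ways not measured here.

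In the 6 kinds of this paragraph, and in the spliceosome proteins described next, a single site was less frequent than 29.5%, with an interval below it. It was 2 of 82 for cytosolic ribosomal proteins (2.44%, 0.671 to 8.46), whose site-bearing genes had a median of 16 sites, and 1 of 33 for SR and hnRNP proteins (3.03%, 0.537 to 15.3), the splicing regulators, with a median of 28. No SR or hnRNP gene had a lone site. Oxidative phosphorylation genes had 1 site in 6 of 73 cases (8.22%, 3.82 to 16.8), nuclear pore and import genes in 4 of 31 (12.9%, 5.13 to 28.9), histones in 6 of 46 (13.0%, 6.12 to 25.7) and chaperones in 5 of 37 (13.5%, 5.91 to 28.0). The median number of sites was 9 in the nuclear pore and chaperone kinds and 5 in the oxidative phosphorylation and histone kinds.

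Spliceosome proteins, the partners of USP39, had 1 site in 8 of 50 site-bearing genes (16%, 8.34 to 28.5), and 7 of these were lone. SF3B4, SF3B5 and SF3A2 encode parts of the U2 snRNP that recognises the branch point, and SNRPB2 encodes another U2 protein. PRPF31 and LSM8 encode proteins of the U4/U6 part of the tri-snRNP, and PLRG1 a protein of the Prp19 complex. The SF3B5 site, printed above, lay 30 nt from the 5′ end of a gene of 690 nt, and the PLRG1 site 56 nt from the 5′ end. The SF3A2 site lay 478 nt from the 3′ end, with another site 697 nt away outside the gene.

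Translation factors (9 of 48, 18.8%), RNA helicases (6 of 30, 20%), solute carriers (18 of 82, 22%), proteasome genes (8 of 35, 22.9%), cell cycle and replication genes (13 of 53, 24.5%), DNA repair genes (7 of 28, 25%) and tRNA synthetases (7 of 26, 26.9%) were below 29.5% with intervals that included it. Examples among the lone-site genes were PSMC3 and PSMD4, subunits of the proteasome's regulatory particle, with sites 500 and 28 nt from the 5′ end. CCNA2, the S-phase cyclin gene, had its site 2391 nt from the 3′ end, and CDK9, the kinase that releases paused RNA polymerase, 1212 nt from it. RAD52, a recombination gene, had its site 620 nt from the 3′ end.

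At the other end stood the F-box and Kelch genes and the FAM genes. F-box and Kelch genes, which encode substrate receptors of ubiquitin ligases, had 1 site in 14 of 27 cases (51.9%, 34 to 69.3), and genes named FAM, for families of little-known function, in 13 of 24 (54.2%, 35.1 to 72.1). Those are the kinds with at least 20 site-bearing genes whose interval lay above 29.5%. Of the F-box and Kelch genes 13 were lone, with a median span of 54.3 kb, among them FBXO7, KLHL21, KLHL11 and FBXL14. Their median number of sites was 1.

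Mitochondrial ribosomal proteins stood far from the cytosolic ones, at 17 of 40 (42.5%, 28.5 to 57.8) against 2 of 82. Their intervals did not overlap. The 14 lone mitochondrial ones had a median span of 8.64 kb. MRPL51 (1377 nt) had its site 410 nt from the 3′ end and MRPL11 818 nt from it. Transcription and mediator genes (22 of 53, 41.5%, 29.3 to 54.9), zinc finger genes (29 of 73, 39.7%, 29.3 to 51.2) and centrosome and cilium genes (21 of 54, 38.9%, 27.0 to 52.2) were also above 29.5%, with intervals that reached down to it. Zinc finger genes seldom had any site at all, 73 of 608 (12%).

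**Figure D5:**
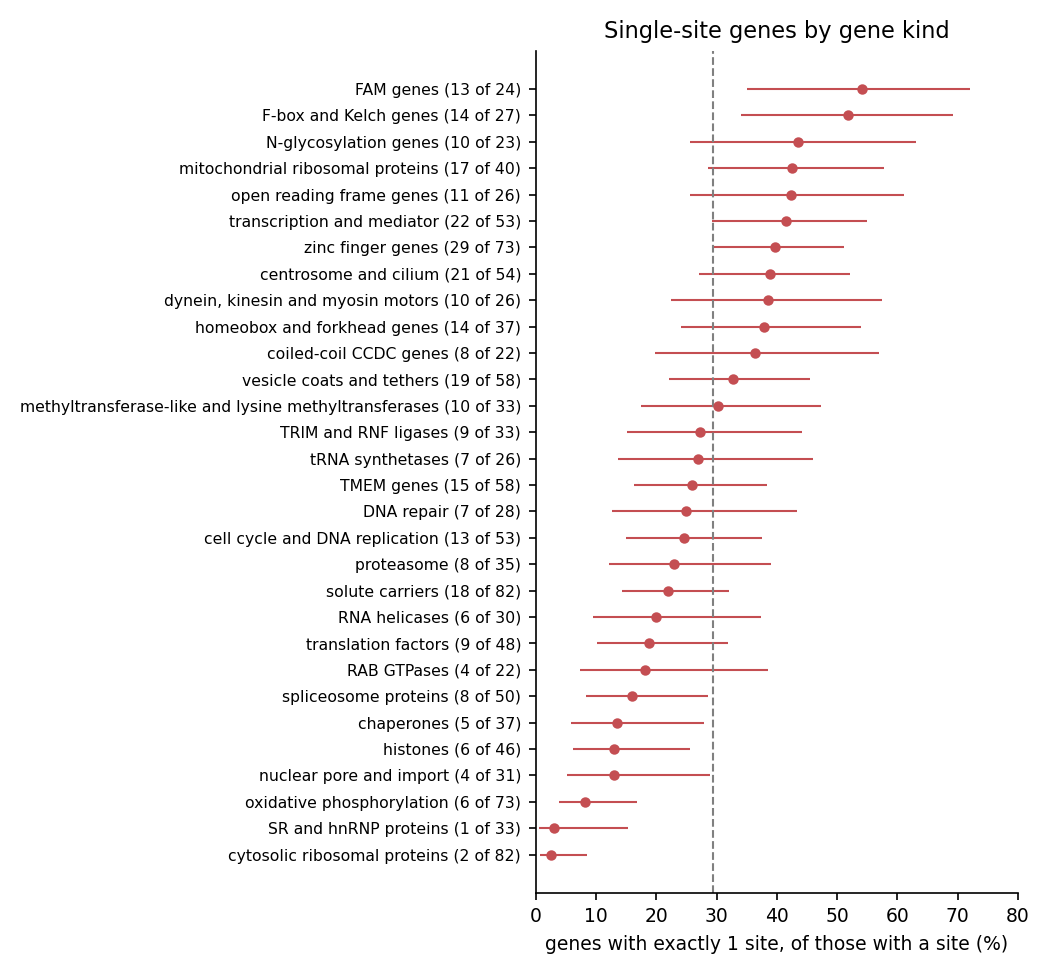
Share of site-bearing genes with exactly 1 site (x axis, %, with Wilson 95% intervals for counting error) for the kinds with at least 20 site-bearing genes; the dashed line marks 29.5%, the share over all. Cytosolic ribosomal proteins (2.44%) lie at the low end, and FAM genes (54.2%) at the high end.

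The place of the lone site varied within kinds, on few genes each. Against 29.8% of all lone sites, it was in the last 10% in 5 of 5 coiled-coil CCDC genes, 1 of them antisense, in 8 of 21 transcription and mediator genes, in 3 of 21 zinc finger genes and in 2 of 16 solute carriers. These kinds were picked after their counts were seen. Vesicle coat and tether genes had 7 of 17 in the last 10% and 5 in the first. In the homeobox and forkhead genes, whose lone-site members had a median span of 4.19 kb, 5 of 10 lay within 1 kb of the 3′ end, against 72 of the 214 lone sites (33.6%) in genes under 10 kb. The 4 shortest were HOXA2 (421 nt), FOXD1 (622 nt), NKX2-5 (56 nt) and HOXC9 (462 nt). The symbol patterns also take in some genes of another function, such as ORMDL2 among the receptors and ITGB3BP among the integrins.

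Well-known disease and signalling genes were read separately. Of 152 listed ones, 81 had a site and 20 of these had exactly 1 (24.7%, 16.6 to 35.1), an interval that includes 29.5%. In 17 the site was lone. Among them were BRAF, BRCA1, CTCF, DNM1L, DNMT3A, INSR, LMNA, LRP6, NF1, NIPBL, RELA, SMAD2, SMC3, SMO and STAT3.

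Of these 17, 7 had their site in the last 10%, where 29.8% of all lone sites lay. The site of RELA, which encodes the p65 subunit of NF-κB, lay 631 nt from the 3′ end (chr11:65654230-65654234, minus strand), that of CTCF, the insulator-binding protein gene, 1221 nt (chr16:67637954-67637958, plus strand), that of BRCA1, a DNA repair gene, 1262 nt (chr17:43045555-43045559, minus strand) and that of SMO, the Hedgehog signal transducer gene, 1898 nt (chr7:129211645-129211649, plus strand). LRP6, a WNT co-receptor gene, INSR, the insulin receptor gene, and DNMT3A, a DNA methyltransferase gene, had theirs at 3327, 4440 and 6420 nt. Sites in the first 10% were in SMAD2, a TGF-β signal transducer gene (880 nt from the 5′ end, chr18:47929990-47929994, minus strand), the cohesin gene SMC3 (1259 nt, chr10:110568952-110568956, plus strand) and the lamin gene LMNA (2713 nt, chr1:156085284-156085288, plus strand). SMC3 had a further site on its strand 1261 nt away, whose central base lay just outside the gene span. The 5 nt of that further site reached the first base of the span, so SMC3 is lone by the central base only.

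Other sites lay inside long genes, far from both ends. In BRAF, a kinase gene of the MAP kinase pathway, the site was 123.5 kb from the 5′ end and 88.1 kb from the 3′ end (chr7:140801467-140801471, minus strand). In NF1, which encodes a brake on RAS, it was 154 kb and 129 kb from these ends (chr17:31249109-31249113, plus strand). The sites of DNM1L, NIPBL and STAT3 lay 47.7%, 78.9% and 86.4% of the way along.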

How the data were processed

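USP39 iCLIP2 sites from HEK293T cells were taken as 1 merged list of 5-nt intervals on GRCh38, whose deposited score is 0 for every site. The submitters' processing notes name FastQC 0.11.9, STAR 2.7.3a, SAMtools 1.10, bedtools 2.29.2, UMI-tools 1.1.2 and the build GRCh38.p12. For the site caller and the choice of merged libraries, the sources used here give nothing. Depth per library is unknown.

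Each site was placed by its central base in the gene spans of the RefSeq table (GRCh38.p14), on either strand. Gene strand came from the RefSeq promoter table. Distances were measured in nt from the span ends, and shares have Wilson 95% intervals. Gene kinds were set by symbol patterns. Python 3.11.15 was used with matplotlib 3.10.9, scipy 1.17.1, pandas 2.3.3 and numpy 2.4.6, and the scripts were tested on simulated data. No test between groups was made. The members, gene kinds and lists were chosen with earlier results of these data known.

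Named genes were the 5 longest and 5 shortest, the 5 nearest each gene end, the 3 farthest from another site, up to 4 of the shortest in each kind with at least 3 lone-site genes, all spliceosome and listed well-known genes, and the 3 closest pairs of 2-site genes. Some of the well-known genes are not reported here. The antisense examples, with COL11A1 and the SPDYE genes, were chosen after their values were seen.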

Additional observations from a re-analysis of the deposited data

How the results depend on the processing

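Other ways of placing the sites moved the number of lone sites between 1054 and 1156, against 1098. Joining sites within 50 nt gave 1134, of which 1098 were the same. Letting uncharacterised LOC genes and pseudogenes not bar a site gave 1156, using only sites on the gene's strand gave 1152, and lengthening gene spans by 1 kb gave 1054, of which 1032 were the same. The median span of lone-site genes was 35.3 kb with sites joined and 36.2 kb with LOC genes and pseudogenes not barring or with lengthened spans, the 3 settings in which it was computed. The share of lone sites in the last 10% of the gene moved to 33.4% among genes of at least 10 kb, and lay between 29.4% and 30.8% with sites joined, with LOC genes and pseudogenes not barring and with lengthened spans. The share in the first 10%, not computed for lengthened spans, lay between 14.4% and 14.9% in genes of at least 10 kb, with sites joined and with LOC genes and pseudogenes not barring. Neither these shares nor the median were computed for any base in the span or for sites on the gene's strand alone. The share of site-bearing genes with exactly 1 site was 30.9% with sites joined, against 29.5%, and all 37 gene kinds with at least 3 lone-site genes stayed within their intervals. Leaving out antisense sites or genes of unlisted strand, 2 settings chosen after seeing the data, gave 29.97% and 30.01% in the last 10%. No paired analysis was possible because the list is merged over libraries. The list gives no depth, so weak second sites that were not called cannot be counted.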

Other observations

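The 265 single-site genes left out because their site also lay in another gene had a median span of 37.2 kb. The second gene was another protein-coding gene for 166 of them, a long non-coding RNA gene for 67, a pseudogene for 34 and a snoRNA or tRNA gene for 8. Some sites lay in more than 1 such gene.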
